A study of Mus musculus with 17 samples.

Results

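Oxidative phosphorylation is carried out by 5 protein complexes of the inner mitochondrial membrane. Complex I (NADH dehydrogenase), complex II (succinate dehydrogenase), complex III (the cytochrome bc1 complex) and complex IV (cytochrome c oxidase) pass electrons to oxygen, and complex V (ATP synthase) uses the proton gradient they build to make ATP. Most subunits are encoded in the nucleus and imported, while a small set is transcribed from the mitochondrial DNA (mtDNA). The members described here are the protein-coding genes whose GENCODE symbol begins with one of the names used for these subunits (Ndufa, Ndufb, Ndufc, Ndufs, Ndufv, Sdha to Sdhd, Uqcr, Cox4 to Cox8, Atp5, mt-Nd, mt-Co, mt-Cytb and mt-Atp). The rule found 115 of the 55359 genes of the table, 102 nuclear and 13 mitochondrially encoded. Complex I holds 38 nuclear and 7 mtDNA members, complex II 4 nuclear members, complex III 8 and 1, complex IV 21 and 3, and complex V 18 and 2. The symbols also bring in 12 assembly factors (Ndufaf and Sdhaf genes) and Atp5if1, the inhibitor of ATP synthase.

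RNA was sequenced from testes and forebrain of male mice at postnatal day 1 (P1), in 17 libraries. Testes came from 2 WT pups of WT mothers, 3 Ocn+/- pups and 3 Ocn-/- pups, and forebrain, which the sample labels call hippocampus, from 3 pups of each genotype. The study's captions differ on how many WT forebrains were used, and whether a library was left out there is not given in the sources used here. The mutant pups carry the OcnGK deletion of the Osteocalcin genes, made by homologous recombination in embryonic stem cells on a 129/SvEv background, and were born to Ocn-/- mothers. The genotype of the pup, that of its mother and the litter therefore cannot be told apart in any comparison with WT. No label says that the replicates came from separate litters, so the p-values measure the spread between these samples.

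The testes libraries held 7302401 to 8289015 expected counts each and the forebrain libraries 6518151 to 14621584. Leydig and Sertoli markers were present in every testis library and neuron markers in every forebrain library. Their summed levels were 632 to 1314 and 1050 to 1666 CPM (counts scaled to the library size after TMM normalization) in testes, and 3746 to 4424 CPM in forebrain. Bglap, an Osteocalcin gene, had 0 to 5 counts and Bglap2 had 0 in every library, so the deletion could not be checked in these tissues. The third WT forebrain library stood apart from its group. A chi-square per degree of freedom of its gene counts against the other WT libraries was 69.9 and 90.8, where the other pairs of replicates lay between 3.57 and 13.2. Mitochondrial ribosomal RNA took 1.6% of its counts, against 0.121% to 0.190% in the other forebrain libraries. Calls that rest on this library are given with and without it.

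Before levels of mtDNA genes can be read, their sequence has to be set beside a nuclear copy of the same stretch. On chromosome 1 of GRCm39, pseudogenes between 24650616 and 24655278 repeat part or all of 7 of the 13 mtDNA genes. The stretches shown here let the gene and its copy be compared, since reads from identical stretches cannot be assigned to either. The first pair holds 60 bases of mt-Co2, cytochrome c oxidase subunit 2 (chrM:7313-7372, plus strand), and of its copy Gm28661 (chr1:24654287-24654346, minus strand).

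mt-Co2: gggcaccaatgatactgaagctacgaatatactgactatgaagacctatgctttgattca
Gm28661: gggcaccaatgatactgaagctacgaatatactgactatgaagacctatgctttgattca

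Over all 681 aligned bases mt-Co2 and Gm28661 held 0 substitutions. The copy of mt-Nd3, Gm28438, differs from the gene by 1 substitution in 345 aligned bases, T3C, counted from 1 at the first base of the gene. The second pair shows that base in capitals, at chrM:9459-9486 on the plus strand and chr1:24652173-24652200 on the minus strand.

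mt-Nd3: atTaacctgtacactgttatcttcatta
Gm28438: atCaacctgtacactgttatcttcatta

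Most of the counts of 5 mtDNA genes were assigned to the copy. Over all libraries, 98.3% of the counts of mt-Co2 and Gm28661 together lay on Gm28661. The share was 97.2% for mt-Co3 and its copy, 94.2% for mt-Atp6, 85.2% for mt-Nd4l and 78.7% for mt-Nd3. It was 11.1% for mt-Nd4 and 4.49% for mt-Co1, whose copies are partial. The split moved from library to library, so that mt-Co2 itself had 0 to 3108 counts while Gm28661 had 28998 to 54536. Levels of the 7 genes are therefore given below with the counts of the copy added, an alternative chosen after the data were seen. The 6 mtDNA genes mt-Nd1, mt-Nd2, mt-Nd5, mt-Nd6, mt-Cytb and mt-Atp8 had no such copy.

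**Figure D1:**
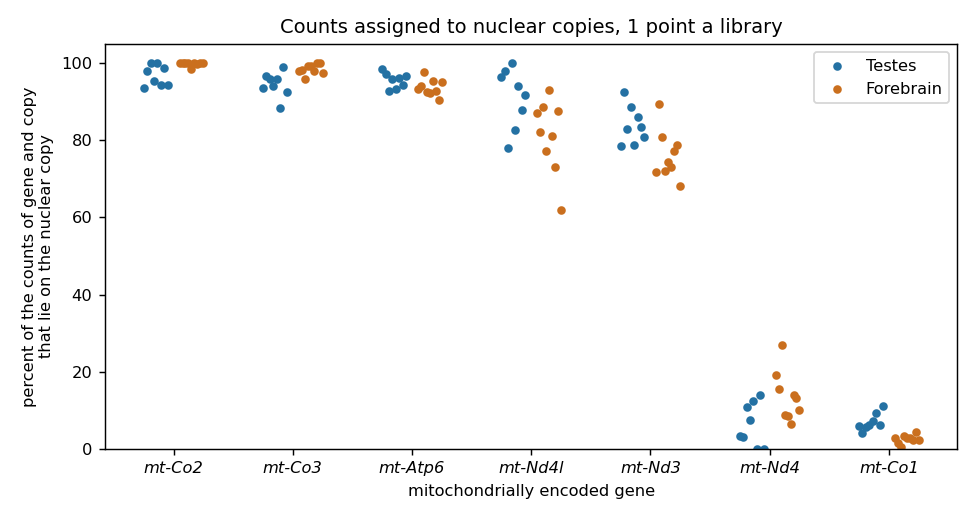
Percent of the counts of each mtDNA gene and its copy on chromosome 1 that were assigned to the copy, with 1 point for each of 8 testes (blue) and 9 forebrain (orange) libraries. For mt-Co2 the points lie between 93.5% and 100%, and for mt-Co1 between 0.51% and 11.2%.

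The mtDNA members with their copies took 4.63% to 5.93% of all counts in testes and 3.75% to 5.90% in forebrain. In testes the mean share was 5.25% ± 0.0856 (SD, n = 2) in WT, 5.13% ± 0.705 (n = 3) in Ocn+/- and 5.19% ± 0.520 (n = 3) in Ocn-/- pups, and the groups overlapped. In forebrain the WT libraries held 4.10%, 4.41% and 5.90%, the Ocn+/- libraries 4.26%, 4.65% and 4.74%, and the Ocn-/- libraries 3.75%, 4.03% and 4.15%. The high WT value belongs to the third library. Nuclear members took a smaller share of counts, 0.635% to 0.748% in testes. In forebrain their share was 0.697%, 0.713% and 0.523% in WT libraries 1 to 3, and 0.742% to 0.808% in the 6 mutant libraries, which all lay above WT. These shares were not tested. In whole tissue, fewer cells of a type and less RNA per cell cannot be told apart.

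**Figure D2:**
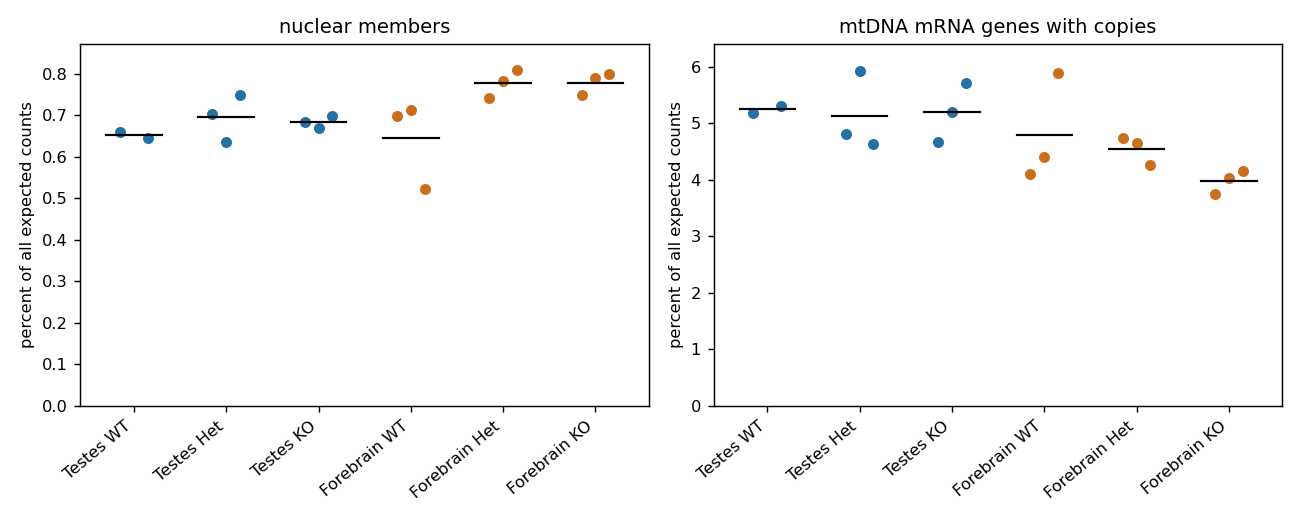
Percent of all expected counts on nuclear members (left) and on mtDNA members with their nuclear copies (right), 1 point per library with the group mean as a bar. The third WT forebrain library has the lowest nuclear share, 0.523%, and a high mtDNA share, 5.90%.

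The members were then compared between genotypes in testes. A gene was called at an adjusted p under 0.05 (edgeR quasi-likelihood test, Benjamini-Hochberg over all genes tested), and 110 of the 115 members passed the filter on low counts. The 5 that did not were Cox5b-ps, Cox6a2, Cox8b, Ndufb11b and the second of the pair of genes named Atp5po. In Ocn+/- against WT testes, 4 nuclear members rose, 2 nuclear members and 1 mtDNA member fell, and 103 were not called. Over all 16361 genes tested, 3.89% were called higher and 4.36% lower, so the share of members called, 6.36%, lay below the 8.25% of all genes called in either direction. The median log2 fold change was 0.00 for the 97 nuclear members and 0.01 for all genes. In Ocn-/- against WT testes, 1 member rose and 2 fell (2.73% of members), where 5.64% of all genes were called, 2.54% higher and 3.09% lower. The nuclear median was -0.02. Without the first Ocn-/- testis library, 0 members were called in Ocn-/- against WT testes. The share of all genes called in that fit is not given here, so the 0 is not read as a result about the members. With a WT testis library left out, the WT group has no replicate, so calls are not read from such a fit. Markers of other cells also differed between these libraries. The 4 Leydig markers summed to 1190 and 1314 CPM in WT and 632 to 1005 CPM in mutant testes with 0 called, and the 5 erythroid markers to 2591 and 6844 CPM in WT and 862 to 3931 CPM in mutants with 0 called. Their part in the results for testes was not tested.

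By complex, the nuclear medians in Ocn+/- testes ran from -0.11 for complex II to 0.13 for complex III, and in Ocn-/- testes from -0.10 for complex II to 0.07 for complex V. Each complex held members on both sides of 0. For complex I in Ocn+/- testes, 18 of 37 fold changes lay above 0, between -0.63 for Ndufc1 and 0.78 for Ndufb4. Complex IV had the widest range, from -1.56 for Cox4i2 to 2.55 for Cox8c, neither of which was called. Over all libraries Cox4i2 had 183 and Cox8c 70 counts, so both ends of that range rest on few counts. Complex V ran from -0.48 for Atp5pd to 0.79 for Atp5mc1 and complex III from -0.41 for Uqcrc2 to 0.93 for Uqcr10. In Ocn-/- testes the same complexes ran from -1.42 for Cox4i2 to 2.22 for Cox8c, from -0.39 for Atp5pd to 0.67 for Atp5mc1 and from -0.25 for Uqcrfs1 to 0.40 for Uqcr10, and complex I from -0.55 for Ndufv3 to 0.55 for Ndufb4. Ndufb4 had 2870 counts over all libraries and its pseudogene copy Ndufb4c 4923, and with the copy added its fold changes were 0.21 in Ocn+/- and 0.22 in Ocn-/- testes.

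**Figure D3:**
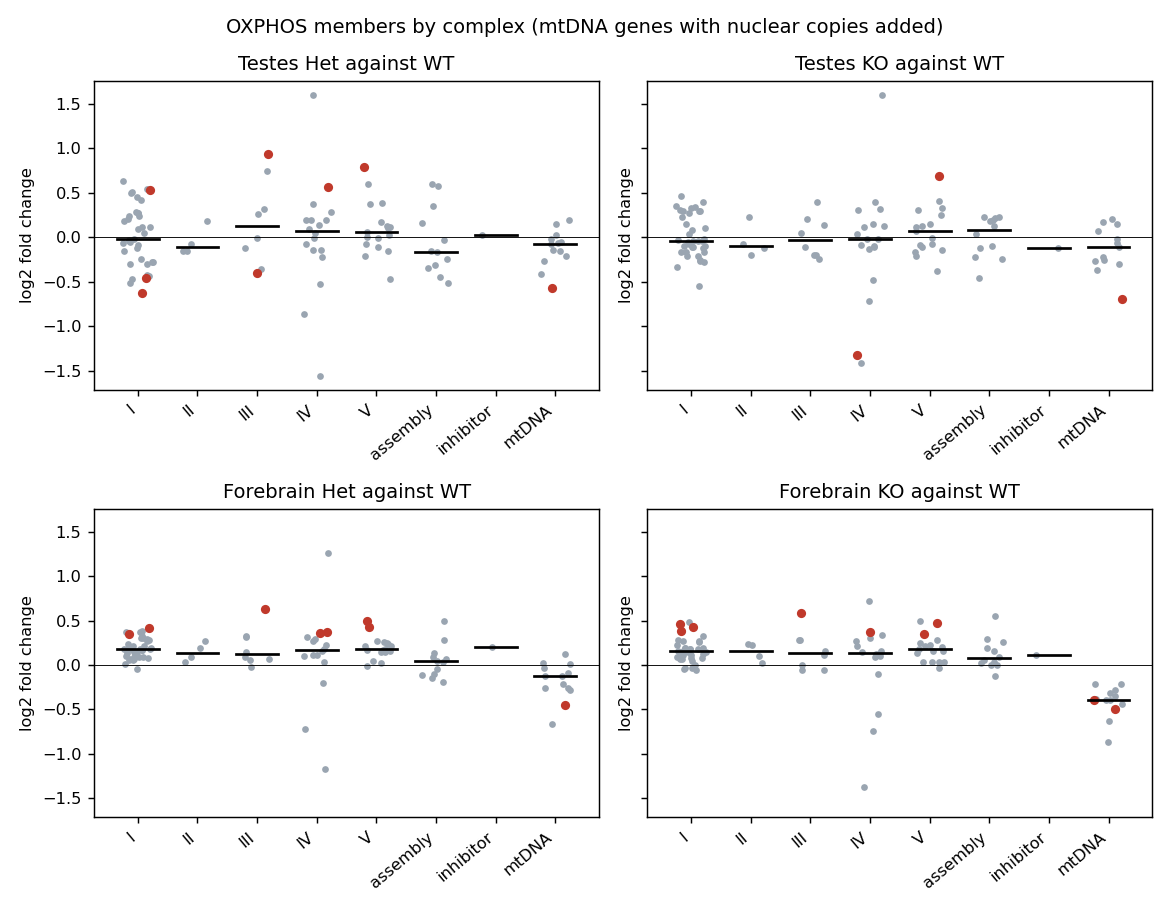
Log2 fold change of each member tested against WT, by complex, with mtDNA genes and their nuclear copies added together in the last column. Red points are called at an adjusted p under 0.05, bars are medians, and Cox8c in testes is drawn at the axis limit of 1.6. In forebrain, with all libraries, the nuclear medians of the 5 complexes lie above 0 and the mtDNA median below it, which for Ocn+/- does not hold without the third WT library or, on the genes' own counts, with GC offsets or library size alone.

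Atp5mc1, which encodes the c subunit that forms the rotor ring of ATP synthase, was called higher in both mutant genotypes of both organs. In testes its level was 46.9 and 38.1 CPM in WT, 79.0, 58.5 and 83.3 CPM in Ocn+/-, and 69.3, 60.5 and 73.5 CPM in Ocn-/- libraries. All mutant libraries lay above both WT libraries. The log2 fold change was 0.79 ± 0.17 (SE, adjusted p = 0.0109, edgeR) in Ocn+/- and 0.67 ± 0.17 (adjusted p = 0.0263, edgeR) in Ocn-/- pups. In forebrain it was 89.2, 89.0 and 63.8 CPM in WT, 104, 125 and 116 CPM in Ocn+/-, and 105, 117 and 115 CPM in Ocn-/- libraries, again without overlap. The log2 fold change there was 0.50 ± 0.11 (adjusted p = 0.0172, edgeR) and 0.47 ± 0.11 (adjusted p = 0.0216, edgeR). Without the third WT forebrain library it was 0.37 (adjusted p = 0.0677, edgeR) and 0.34 (adjusted p = 0.0871, edgeR), so both forebrain calls were lost while the groups still did not overlap. No member, Atp5mc1 included, was called in Ocn+/- pups of either organ without the third Ocn+/- library of that organ. The same held in Ocn-/- testes without the first and in Ocn-/- forebrain without the second Ocn-/- library. The comparisons with WT within an organ share their WT libraries and are not independent of each other. Of the 50-base stretches of the Atp5mc1 transcript, 59.5% also occur in the pseudogene Gm10039, which had 290 counts over all libraries against 15769 for Atp5mc1.

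Of the other members called in testes, most belong to complexes I, III and IV. Cox5b, a nuclear subunit of cytochrome c oxidase, was at 76.4 and 81.4 CPM in WT and at 115, 108 and 127 CPM in Ocn+/- testes, a log2 fold change of 0.56 ± 0.13 (adjusted p = 0.0159, edgeR). In Ocn-/- testes it was at 87.5 to 107 CPM, above WT in every library but not called (0.32, adjusted p = 0.148, edgeR). Uqcr10, a small complex III subunit, rose by 0.93 ± 0.26 in Ocn+/- testes (adjusted p = 0.0407, edgeR) from 21.2 and 17.5 CPM to 37.8, 28.8 and 44.5 CPM. Ndufb8, of complex I, rose by 0.53 ± 0.15 (adjusted p = 0.0385, edgeR). Ndufc1 and Ndufs4, also of complex I, moved the other way. Ndufc1 was at 42.7 and 40.7 CPM in WT and at 28.0, 26.7 and 26.1 CPM in Ocn+/- testes, a log2 fold change of -0.63 ± 0.15 (adjusted p = 0.0209, edgeR). Ndufs4 fell by 0.46 on the log2 scale (adjusted p = 0.0468, edgeR). Without the third Ocn+/- testis library, 0 members were called in Ocn+/- testes. The share of all genes called in that fit is not given beside it, so the 0 is not read as a result about the members. Fits without a WT testis library have no WT replicate, and calls are not read from them. With offsets for GC content, chosen after the data were seen, the Ocn+/- calls of 4 of these genes were lost in edgeR, Ndufs4 (-0.20, adjusted p = 0.358), Ndufb8 (0.33, adjusted p = 0.155), Ndufc1 (-0.44, adjusted p = 0.077) and Uqcr10 (0.71, adjusted p = 0.0716). With the same offsets Ndufs3 of complex I was called lower (-0.52, adjusted p = 0.0345, edgeR), and in Ocn-/- testes Ndufab1, the acyl carrier protein of complex I, higher (0.46, adjusted p = 0.0365) and Ndufv3 lower (-0.62, adjusted p = 0.0383). With copies added Uqcrc2 of complex III was called lower in Ocn+/- testes (adjusted p = 0.0499, edgeR). Ndufs3 and Ndufab1 are named here after their values were seen.

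Among the mtDNA members, mt-Nd2, a core subunit of the membrane arm of complex I (chrM:3914-4951), fell in both mutant genotypes of the testes. Its level was 2721 and 3368 CPM in WT, 1911, 2177 and 2036 CPM in Ocn+/-, and 1452, 2151 and 2038 CPM in Ocn-/- libraries. The 6 mutant libraries lay below both WT libraries, with log2 fold changes of -0.58 ± 0.16 (adjusted p = 0.0344, edgeR) and -0.70 ± 0.16 (adjusted p = 0.0171, edgeR). With offsets for GC content, an alternative chosen after the data were seen, the call in Ocn+/- testes was lost (-0.23, adjusted p = 0.42, edgeR), while that in Ocn-/- testes was not (-0.57, adjusted p = 0.0335, edgeR). With copies added, at a background of 8.38% of all genes called in Ocn+/- and 5.65% in Ocn-/- testes, mt-Nd2 was called in both genotypes and the other 12 mtDNA members in neither. Their fold changes lay between -0.41 for mt-Co3 and 0.19 for mt-Nd5 in Ocn+/- pups. In these same libraries mitochondrial ribosomal RNA took 0.162% and 0.225% of counts in WT and 0.0590% to 0.0873% in mutants. Its part in the result for mt-Nd2 was not tested.

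Ndufa4l2, an alternative form of the complex IV subunit Ndufa4 that is induced by hypoxia, fell in Ocn-/- testes. It was at 6.72 and 10.3 CPM in WT, 4.24, 3.53 and 6.31 CPM in Ocn+/- and 3.19, 2.54 and 4.41 CPM in Ocn-/- testes. The log2 fold change was -1.33 ± 0.35 in Ocn-/- (adjusted p = 0.0374, edgeR) and -0.86 in Ocn+/- pups (adjusted p = 0.129, edgeR). With GC offsets it was called in Ocn+/- testes too (-1.17, adjusted p = 0.0496, edgeR). Cox4i2, the alternative form of Cox4i1, was likewise below WT in every mutant library of the testes, at 2.46 and 3.53 CPM in WT and 0.795 to 1.42 CPM in mutants, without passing the test (adjusted p = 0.0706 and 0.109, edgeR). In forebrain neither was called. Ndufa4l2 was at 3.34 to 3.91 CPM in WT and 1.6 to 2.63 CPM in mutants, and Cox4i2 at 1.26 to 1.6 CPM and 0.160 to 0.774 CPM, so that in both organs all mutant libraries lay below WT. Markers of endothelial cells moved with these genes. Their 4 genes summed to 503 and 519 CPM in WT testes and to 308 to 387 CPM in mutant testes, and 3 of 4 were called lower in Ocn-/- testes, Pecam1 with -1.13 and Kdr with -0.99. In forebrain the endothelial sums overlapped, at 124 to 148 CPM in WT and 96.0 to 142 CPM in mutants. The 4 markers of peritubular myoid cells and smooth muscle summed to 12.2 to 13.3 CPM in WT forebrain. They summed to 7.97 to 11.7 CPM in Ocn+/- and 8.65 to 9.99 CPM in Ocn-/- forebrain, below WT in every library. In testes they summed to 869 and 1072 CPM in WT, 738 to 929 CPM in Ocn+/- and 642 to 838 CPM in Ocn-/- libraries. The part of these cells in the result was not tested. The transcript of Ndufa4l2 shares 74.1% of its 50-base stretches with transcripts of its neighbour Shmt2, which was not called in testes (0.20 in Ocn-/-, adjusted p = 0.487, edgeR).

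**Figure D4:**
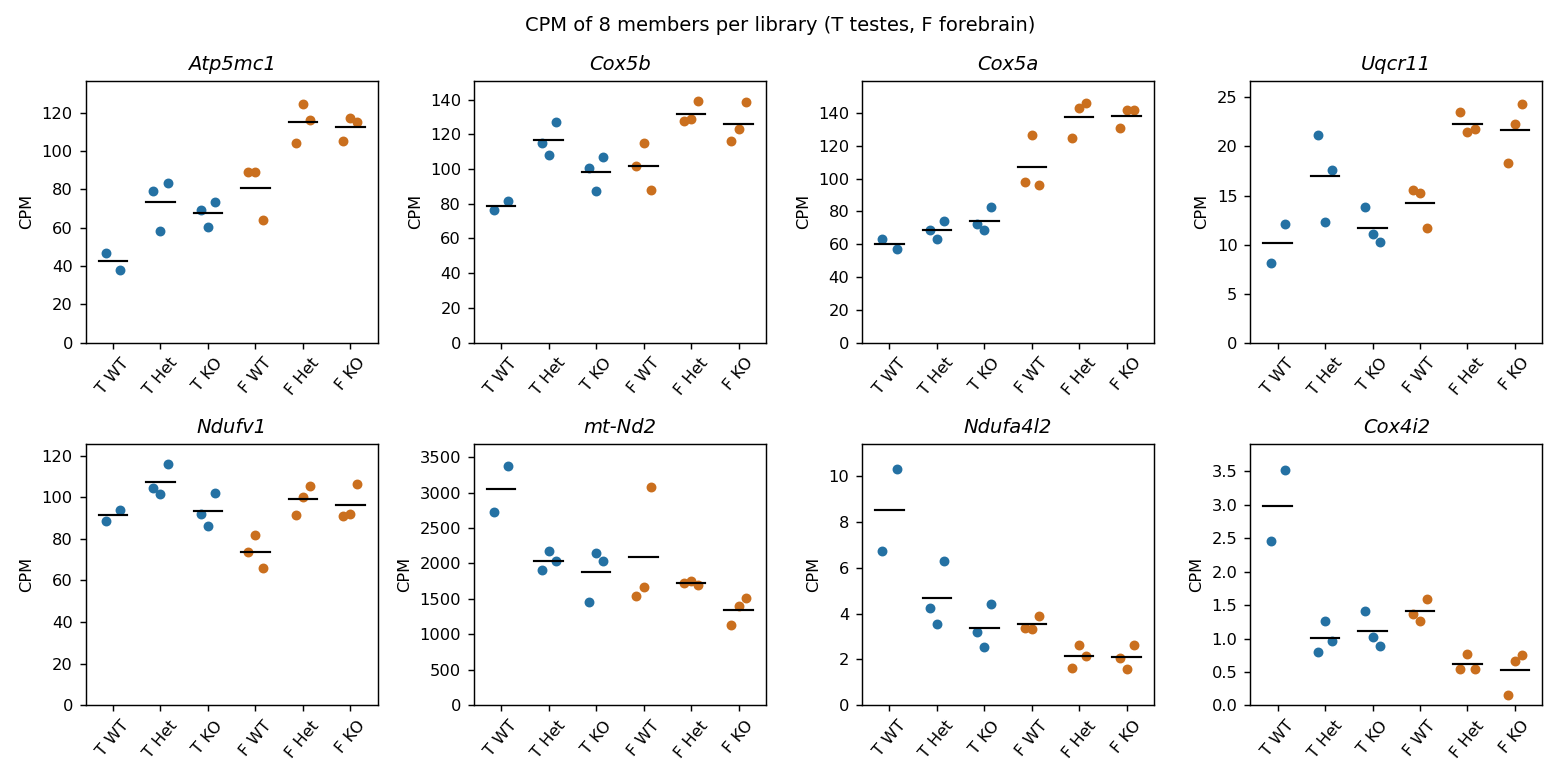
Level in CPM of 8 members in each library of testes (T, blue) and forebrain (F, orange), with group means as bars and axes from 0. Atp5mc1 lies above WT in all mutant libraries of both organs, and Ndufa4l2 and Cox4i2 below WT in all of them.

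In forebrain most nuclear members lay above WT. The filter left out 8 members there, mt-Co2, Cox6a2, Cox7a1, Cox7b2, Cox8b, Cox8c, Ndufb11b and the second Atp5po. Of 95 nuclear members tested, 84 had a fold change above 0 in Ocn+/- and 82 in Ocn-/- against WT, with medians of 0.17 and 0.16, where the median of all genes was 0.01 in both. In each comparison 6 nuclear members (6.32%) rose and 0 fell. Over all 16076 genes, 3.89% were called in Ocn+/-, 1.21% higher and 2.68% lower, and 4.85% in Ocn-/- pups, 1.8% higher and 3.05% lower. All libraries of a mutant group lay above all WT libraries for 33 of 95 nuclear members in each genotype, 34.7%, against 12.9% of all genes tested. Both shares include the third WT library and are not given without it. In testes, with 2 WT libraries, 23.4% and 19.9% of all genes lay above WT in Ocn+/- and Ocn-/- pups. The medians of complexes I to V were 0.18, 0.14, 0.12, 0.17 and 0.17 in Ocn+/- and 0.16, 0.16, 0.13, 0.14 and 0.17 in Ocn-/- forebrain. The member with the highest fold change that was not called was Cox5b-ps, classed with complex IV (1.26 and 0.72), which had 156 counts over all libraries and shares 65% of its 50-base stretches with other genes. Others that were not called included Ndufs8 of complex I (0.48) and Atp5f1e of complex V (0.50) in Ocn-/- pups, and the assembly factor Sdhaf1 (0.49 and 0.56). With GC offsets Ndufs8 was called in Ocn-/- pups (0.45, adjusted p = 0.0429, edgeR), and Cox7b of complex IV in both genotypes (0.37 in each, adjusted p = 0.0491 and 0.0404). With copies added Atp5mg of complex V was called in both (0.43 and 0.35, adjusted p = 0.021 and 0.04999, edgeR). Cox7b and Atp5mg are named here after their values were seen. With library size alone the nuclear medians were 0.24 and 0.25, and those of all genes 0.09 and 0.11. Without the third WT library 0 nuclear members were called in either genotype, at a background of 0.207% and 0.25% of all genes called higher (0.907% and 0.901% lower). The fold changes then lay above 0 for 78 and 75 of 96 members, with medians of 0.12 and 0.11. Without the third Ocn+/- library 0 members were called in Ocn+/-, and without the second Ocn-/- library 0 in Ocn-/- forebrain. Over the fits with libraries left out in turn, 1.11% to 5.06% of all genes were called in Ocn+/- and 1.15% to 5.6% in Ocn-/- forebrain. Some markers of other cells differed between these forebrain groups. The 5 erythroid markers summed to 521 to 717 CPM in WT, 355 to 406 CPM in Ocn+/- with 3 called lower, and 486 to 598 CPM in Ocn-/- libraries with 0 called. The 4 markers of radial glia and astrocytes summed to 711 to 802, 873 to 917 and 768 to 994 CPM in the same order, and the 3 of choroid plexus to 546 to 716, 553 to 835 and 311 to 515 CPM, with 0 called in either list. The part of these cells in the results for forebrain was not tested.

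The called members came from complexes I, III, IV and V, and 4 of them were called in both genotypes (Atp5mc1, Uqcr11, Ndufv1 and Cox5a). Uqcr11, a small subunit of complex III, was at 15.6, 15.3 and 11.7 CPM in WT, 23.6, 21.5 and 21.7 CPM in Ocn+/-, and 18.3, 22.3 and 24.4 CPM in Ocn-/- forebrain. Its log2 fold change was 0.63 ± 0.14 (adjusted p = 0.0198, edgeR) and 0.59 ± 0.15 (adjusted p = 0.0246, edgeR). Ndufv1, the complex I subunit that binds NADH, was at 73.9, 81.8 and 66.1 CPM in WT and at 91.0 to 106 CPM in the 6 mutant libraries, with log2 fold changes of 0.42 and 0.38. Cox5a, of complex IV, was at 98.2, 126 and 96.2 CPM in WT and at 125 to 146 CPM in mutants, and here 1 Ocn+/- library lay below the highest WT library. Ndufv2 and Cox5b were called in Ocn+/- (0.35 and 0.37), and Ndufb2 and Ndufb9 in Ocn-/- forebrain (0.46 and 0.43). Without the third WT library none of these was called, and the log2 fold changes in Ocn+/- and Ocn-/- forebrain were 0.53 and 0.49 for Uqcr11, 0.35 and 0.31 for Ndufv1 and 0.30 and 0.31 for Cox5a. They were then 0.33 and 0.29 for Ndufv2 and Cox5b in Ocn+/- and 0.39 and 0.35 for Ndufb2 and Ndufb9 in Ocn-/- pups. Of the stretches of Ndufb9, 40.8% are shared with Mtss1, which was called lower there (-0.32).

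Of the 4 genes called in both mutant genotypes of the forebrain, the promoter windows of 2 are printed to show 1 without and 1 with letters of motifs known from respiratory chain genes. They come from RefSeq on GRCm38.p6 and span 300 bases around the annotated start. Capitals mark 8 letters of the NRF1 motif, GCATGCGC, and the core of the motif of GABP and other ETS factors, CCGGAAG, searched on both strands. NRF1 and GABP are regulators of respiratory chain genes. The first is Atp5mc1 (listed as Atp5g1, chr11:96075582-96075881, minus strand), in which neither string occurs, and the second Uqcr11 (chr10:80406772-80407071, minus strand), which holds both. Neither string occurs in the windows of Ndufv1 and Cox5a.

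Atp5mc1: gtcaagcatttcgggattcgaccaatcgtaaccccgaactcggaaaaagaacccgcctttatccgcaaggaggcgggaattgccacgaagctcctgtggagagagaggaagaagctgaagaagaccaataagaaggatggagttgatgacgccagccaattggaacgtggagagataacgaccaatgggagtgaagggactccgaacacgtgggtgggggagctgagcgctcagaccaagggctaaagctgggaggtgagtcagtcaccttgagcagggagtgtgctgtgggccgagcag
Uqcr11: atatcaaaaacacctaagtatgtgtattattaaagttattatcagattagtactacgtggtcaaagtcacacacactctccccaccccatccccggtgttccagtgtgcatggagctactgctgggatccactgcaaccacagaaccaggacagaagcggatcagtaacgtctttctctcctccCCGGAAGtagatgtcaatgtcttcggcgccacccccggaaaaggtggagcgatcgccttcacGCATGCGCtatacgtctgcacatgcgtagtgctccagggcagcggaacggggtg

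Promoter windows were found for 80 nuclear members. GCATGCGC occurred in 12 of the 80 (15%) and in 3.05% of all 27025 genes with a window, and CCGGAAG in 21 (26.2%) and in 9.93%. The ERR string AAGGTCA occurred in 10% of members and 5.38% of all, the YY1 string AAGATGG in 15% and 7.28%, and ACGTG, the core of the hypoxia response element, in 25% and 21.8%. These matches describe letters in a window and not binding.

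The mtDNA members of the forebrain were read with copies added first. With all libraries kept, 10 of 13 fold changes were below 0 in Ocn+/- and all 13 in Ocn-/- against WT. mt-Nd3, a small complex I subunit, was at 683, 759 and 940 CPM in WT, 584, 580 and 584 CPM in Ocn+/- and 545, 578 and 565 CPM in Ocn-/- forebrain. All mutant libraries lay below the 3 WT libraries, the first and second included. It was called lower in both genotypes, by -0.45 (adjusted p = 0.0107, edgeR) and -0.49 (adjusted p = 0.00489, edgeR), where 2.69% and 3.07% of all genes were called lower. mt-Co3, a core subunit of complex IV, was called lower in Ocn-/- pups (-0.39, adjusted p = 0.029, edgeR). The other mtDNA members were not called in Ocn-/- forebrain, with fold changes of -0.87 for mt-Atp8, -0.63 for mt-Nd2, -0.44 for mt-Co1, -0.40 for mt-Atp6, -0.39 for mt-Nd5, -0.38 for mt-Nd4, -0.35 for mt-Cytb, -0.31 for mt-Nd1, -0.28 for mt-Co2, -0.22 for mt-Nd4l and -0.21 for mt-Nd6. The third WT library had the highest level of the 9 forebrains for all 13 genes. With the copies added and that library left out, a fit added after seeing the data, 10 of 13 fold changes lay above 0 in Ocn+/- (median 0.11) and 3 of 13 in Ocn-/- forebrain (median -0.06), so the direction of the group in Ocn+/- pups turned. In that fit mt-Nd3 was still called lower in Ocn-/- (-0.35, adjusted p = 0.0236, edgeR) and not in Ocn+/- pups (-0.30, adjusted p = 0.0513, edgeR). mt-Atp8, a subunit of complex V, was called lower in Ocn-/- pups (-0.48, adjusted p = 0.0185, edgeR), and the call of mt-Co3 was lost (-0.25, adjusted p = 0.113, edgeR). Of all genes, 0.896% and 0.914% were called lower there. When the copies were not added and all libraries were kept, edgeR with TMM normalization called 0 mtDNA members in either genotype. mt-Atp8 was then called lower in Ocn-/- forebrain by DESeq2 (-0.87) and by edgeR with GC offsets (-0.60, adjusted p = 0.0397), and at an unadjusted p under 0.05 edgeR with TMM normalization gave 1 of 12 members in Ocn+/- and 2 of 12 in Ocn-/- forebrain, where 20.3% and 21.7% of all genes passed. On these own counts 5 of 12 fold changes lay above 0 in Ocn+/- forebrain (median -0.04), 8 with GC offsets (median 0.20) and 7 with library size alone (median 0.07), so the direction in Ocn+/- pups turned there as well. In Ocn-/- forebrain 3, 5 and 3 of 12 lay above 0.

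The 4 subunits of complex II, which also serve the tricarboxylic acid cycle, were not called in any comparison with WT. Sdha, its flavoprotein, was at 227 to 242 CPM in WT and 202 to 231 CPM in mutant testes, and at 125 to 130 CPM in WT and 141 to 149 CPM in mutant forebrain. The forebrain groups did not overlap, at log2 fold changes of 0.19 (adjusted p = 0.149, edgeR) and 0.22 (adjusted p = 0.0858, edgeR). Sdhb, Sdhc and Sdhd had fold changes between -0.20 and 0.27 in the 4 comparisons.

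Between Ocn-/- and Ocn+/- pups 0 members were called by edgeR or DESeq2 in either organ. Of all genes tested by edgeR, 0.0% were called in testes and 0.00622% in forebrain. At an unadjusted p under 0.05, edgeR gave 10 of 110 members in testes and 1 of 107 in forebrain (9.09% and 0.935%), where 11.5% and 3.2% of all genes passed. DESeq2 gave 7 and 2 members, at 5.71% and 1.53% of all genes. In forebrain all Ocn-/- libraries lay below all Ocn+/- libraries for 5 of the 12 mtDNA members tested (41.7%), against 4.1% of all genes, and with copies added all 13 fold changes lay below 0 (median -0.23). No WT library enters this order of levels. The mtDNA members were read in the same libraries and are not independent of each other, so their count is not a count of separate tests. With copies added, their summed share of all counts was 4.26% to 4.74% in Ocn+/- and 3.75% to 4.15% in Ocn-/- forebrain. The change of the mutants (mean of both genotypes) against WT was then compared between organs. The difference was called for 4 of 111 members, all higher in forebrain than in testes, where 2.96% of all 17800 genes were called, 1.71% higher and 1.24% lower. Among them were the nuclear complex I subunits Ndufs4 (0.50 ± 0.13), Ndufv3 (0.68 ± 0.18) and Ndufa5 (0.59 ± 0.16), with adjusted p between 0.0384 and 0.0459 (edgeR). Without the third WT forebrain library 0 members were called, against 1.54% of all genes.

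Other genes of mitochondrial function were read from 4 lists. Their calls stand beside shares of all genes called higher and lower of 3.89% and 4.36% in Ocn+/- testes, 2.54% and 3.09% in Ocn-/- testes, 1.21% and 2.68% in Ocn+/- forebrain and 1.8% and 3.05% in Ocn-/- forebrain. Among 40 assembly factors and electron carriers outside the rule, Cox10, which makes the heme A precursor for complex IV, rose in Ocn+/- testes (1.00, adjusted p = 0.0172, edgeR) and in Ocn+/- and Ocn-/- forebrain (0.78 and 0.62). In Ocn+/- forebrain Timmdc1 and Uqcc2 also rose, and 0 genes of this list fell in any of the 4 comparisons. Of 29 genes for mitochondrial replication, transcription and translation, only Ssbp1, the mitochondrial single-stranded DNA binding protein, was called, lower in both mutant forebrain groups (-0.52 in each) and in neither testes group. Of 18 regulators of mitochondrial biogenesis, Pprc1, a coactivator related to PGC-1, rose in all 4 comparisons, by 0.69 and 0.74 in testes and 0.65 and 0.69 in forebrain. Sirt1, Prkaa2 and Gabpa fell in Ocn+/- testes, and Perm1 fell in Ocn-/- forebrain. Of 22 genes that mark mitochondrial mass, 4 fell in Ocn+/- testes, among them Tomm20 (-0.69), Hspa9 (-0.46) and Slc25a3 (-0.41), and Mfn2 rose in Ocn+/- forebrain (0.39). Without the third WT forebrain library, Cox10 in Ocn+/- pups was the only one of the forebrain calls in these lists that passed the test.

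The organs were then compared. Of 111 members tested over all genotypes, 69 were higher and 11 lower in forebrain than in testes, where 84.4% of all genes were called, 39.9% higher and 44.5% lower. The nuclear median was 0.40 against -0.09 for all genes. With library size alone in place of TMM normalization the median of all genes was -0.40, the nuclear median 0.09, and the split of calls 39 higher and 41 lower, so the direction of the smaller differences depends on the scaling. The members named next kept their direction under all alternatives run. Ndufaf3 and Ndufaf5, assembly factors of complex I, were higher in forebrain by 1.79 ± 0.14 and 1.51 ± 0.10, Cox5a by 1.23 ± 0.07 and Ndufb10 by 1.21 ± 0.09. mt-Nd4l was higher by 1.5 when its own counts were read. With its copy added the difference was 0.08 and not called (adjusted p = 0.55, edgeR). mt-Co2 was lower by 7.35 when its own counts were read, and by 0.34 with its copy added.

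The lowest members in forebrain were tissue-specific forms of complex IV subunits. On the scale of the joint fit of both organs, Cox8c, a testis form of subunit 8, was at 0.115 to 2.02 CPM in testes and at 0 in all 9 forebrain libraries. Cox7b2 had a median of 1.97 CPM in testes and 0.0845 CPM in forebrain (-4.38 ± 0.44), and Cox6b2, the testis form of subunit 6b, 8.48 and 2.08 CPM (-2.08 ± 0.17). Per kilobase of transcript, the common forms were far more abundant in both organs. Cox6b1 had a median of 125 CPM per kb in testes and 290 in forebrain against 14.1 and 3.47 for Cox6b2, and Cox4i1 had 184 and 265 against 1.33 and 1.10 for Cox4i2. Cox8a had 98.3 and 178 CPM per kb against 1.85 and 0 for Cox8c, and Cox7a2 52.9 and 106 against 2.72 and 0.975 for Cox7a1, which was lower in forebrain (-1.63 ± 0.42). Cox6a1 had 103 and 204 CPM per kb against 0.168 and 0.661 for Cox6a2. Forms of skeletal and heart muscle were low, with Cox6a2 at no more than 0.836 CPM and Cox8b at no more than 0.117 CPM in any library. Of the nuclear members, Atp5f1b, the catalytic beta subunit of ATP synthase, had the highest median per kb, 305 in testes and 463 in forebrain.

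**Figure D5:**
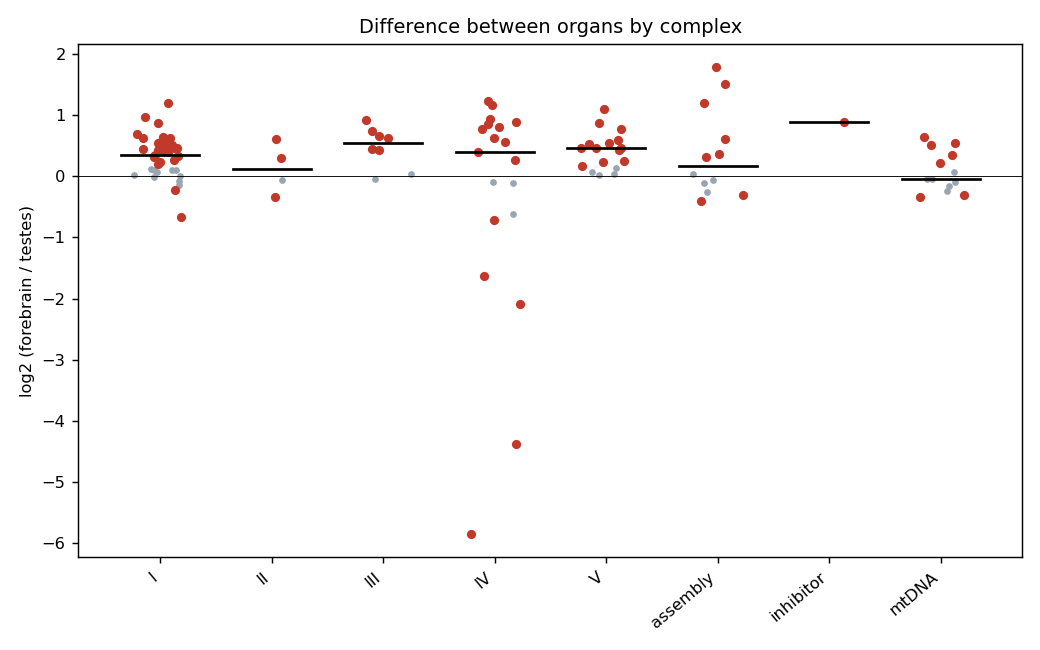
Log2 ratio of forebrain to testes for each member tested, by complex, with mtDNA genes and their copies added together. Red points are called at an adjusted p under 0.05 and bars are medians; the lowest points are Cox8c and Cox7b2 of complex IV.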

How the data were processed

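RNA of 17 libraries (8 testes, 9 forebrain, P1) was selected on poly-T beads and made into libraries with a kit that does not mark strand. Per the study's methods and the submitters' processing notes, reads were trimmed with Trim Galore 0.6.6, aligned to GRCm39 with STAR 2.7.8a and counted with RSEM 1.3.3. The authors deposited RSEM expected counts per gene, without normalization, and 0 columns belong to other samples. Their GENCODE release is not given in the sources used here. Release M39 gave names for 54749 of 55359 identifiers. RSEM divides reads that match several genes by estimate, so near-identical copies share counts.

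Expected counts were rounded. Each organ was fitted with edgeR 4.0.16 (R 4.3.3) with filterByExpr by genotype, TMM and robust quasi-likelihood tests, all genotypes together, and both organs in 1 joint fit. Tests were two-sided, adjusted over all genes, with a threshold of 0.05. Fold changes carry standard errors derived from the F statistic. DESeq2 1.42.0 was an alternative. A member's copies are pseudogenes that hold at least 20% of its 50-base stretches. On simulated counts, 68% of 2-fold and 99% of 4-fold changes were found for Ocn+/- against WT testes, among 16115 genes, and 89.4% and 100% for forebrain, among 15990. The simulation gave all genes of an organ the same spread and held no library that stands apart. Changes under 2-fold were not simulated. The text names members called against WT or in organ by genotype, all mtDNA and complex II members, tissue-specific forms, members at the ends of each complex and of the organ comparison, and up to 3 called genes a list. Of the members this rule names, 1 is not reported here. The members and lists were chosen with earlier results of these data known. Correlations of deviations between same-numbered libraries ran from -0.0937 to 0.146, so replicate numbers were not taken as pairs.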

Additional observations from a re-analysis of the deposited data

Results flagged for a closer look

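For Ndufs4, Ndufv3 and Ndufa5, nuclear subunits of complex I, the change of the mutants against WT differed between organs by the test of that difference itself. On the log2 scale the forebrain change exceeded the testes change by 0.50 for Ndufs4, 0.68 for Ndufv3 and 0.59 for Ndufa5. Ndufs4 was at 58.6 and 53.6 CPM in WT and 39.8 to 52.1 CPM in mutant testes, and at 48.0 to 52.9 CPM and 53.3 to 60.7 CPM in forebrain, without overlap in either organ. In Ocn+/- testes Ndufs4 was called at -0.46, and with GC offsets, chosen after seeing the data, at -0.20 it was not (adjusted p = 0.358, edgeR). With GC offsets its difference between organs was 0.41 and not called (adjusted p = 0.0816, edgeR). The call of each was lost without the third WT forebrain library and with library size alone. With a WT testis library left out, the WT testes have no replicate, so calls are not read from those fits.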

How the results depend on the processing

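With libraries left out in turn, the members called ranged from 0 to 16 in Ocn+/- testes, 0 to 10 in Ocn-/- testes, 0 to 9 in Ocn+/- forebrain, 0 to 8 in Ocn-/- forebrain, 0 to 9 for organ by genotype and 76 to 85 between organs, and stayed at 0 for Ocn-/- against Ocn+/-. Of all genes the same fits called 0.691% to 12.5%, 0.498% to 9.59%, 1.11% to 5.06%, 1.15% to 5.6%, 0.506% to 6.03% and 80.5% to 84.2%. In testes, counts of 0 came without the third Ocn+/- library for Ocn+/- pups and without the first Ocn-/- library for Ocn-/- pups. In forebrain they came without the third WT or the third Ocn+/- library for Ocn+/- pups, and without the second Ocn-/- library for Ocn-/- pups. The ranges above include fits without a WT testis library, in which the WT testes have no replicate. In Ocn+/- testes, count 7 at 8.25% of all genes, DESeq2 gave 11 (13%), no filter 17 (7.36%), GC offsets 4 (4.85%) and a fit of only the genotypes compared 14 (13%). In Ocn-/- testes, count 3 at 5.64%, GC offsets gave 5 (8.01%). In forebrain, count 6 each at 3.89% and 4.85%, no filter gave 15 in Ocn+/- (4.37%), and in Ocn-/- DESeq2 gave 13 (7.31%), no filter 14 (5.19%) and length offsets 10 (6.15%). For organ by genotype, count 4 at 2.96%, library size alone gave 0 (2.23%) and DESeq2 7 (6.44%). From a value of 0.00, mt-Nd3 went to -0.49 in Ocn-/- forebrain with copies added, and to -0.35 with copies and without the third WT library, a setting that left 0 members called in Ocn+/- and 2 in Ocn-/- forebrain. GC offsets, copies and copies without the third WT forebrain library were chosen after seeing the data. The replicate block, which the numbers do not justify as pairing, gave 5, 3, 8, 6 and 4 calls in the same order, and 81 between organs, at 5.92%, 5.11%, 4.78%, 7.09%, 2.83% and 84.5% of all genes.

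Across nuclear members the fold change in Ocn+/- testes ran with transcript GC content (Spearman 0.40, n = 97 genes that share libraries), as it did over all 16313 genes with a GC value (0.43). Of 2545 values of named members under alternatives, 2356 kept their direction and side of the threshold, or were called in neither. Against nuclear protein-coding counts the mtDNA share was 3.60% in WT testes, 2.62% in Ocn-/- and 3.08% in Ocn+/- forebrain, and the nuclear share 0.707% in WT testes, 0.738% in Ocn-/- testes, 0.831% in Ocn-/- and 0.836% in Ocn+/- forebrain. With copies the mtDNA share was 5.25%, 5.19%, 5.13%, 4.80%, 3.98% and 4.55% in WT, Ocn-/- and Ocn+/- testes and in WT, Ocn-/- and Ocn+/- forebrain. In the same order, leaving out libraries gave mtDNA shares of 3.26% to 3.38%, 3.10% to 3.44%, 3.05% to 3.46%, 2.56% to 3.20%, 2.39% to 2.55% and 2.80% to 2.95%, and nuclear shares of 0.645% to 0.659%, 0.676% to 0.691%, 0.669% to 0.725%, 0.610% to 0.705%, 0.769% to 0.794% and 0.762% to 0.795%. Levels under about 1 CPM rest on few counts.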
